A study of Mus musculus with 21 samples.

Results

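RNA polymerase III (Pol III) binding was measured at all 3283 predicted tRNA loci of the mouse genome in back skin of wild-type (WT) mice, by chromatin immunoprecipitation and sequencing (ChIP-seq). The measurements come from 3 of the 21 libraries of the series, namely 2 WT Pol III ChIP libraries and 1 WT input library. Every predicted locus was kept and was placed in 1 of 4 classes by its reads. A locus was called occupied when it held at least 10 reads in both ChIP libraries and a mean level at least 2-fold that of the input. Of the 3283 loci, 226 (6.88%) were occupied and 2817 were silent, with under 10 reads in both ChIP libraries. Another 70 loci had at least 10 reads in both ChIP libraries but were not over input, and 170 loci reached 10 reads in 1 ChIP library only.

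The study compared tRNA transcription, tRNA abundance and cytosine-5 methylation in skin of WT mice and of mice lacking the RNA methyltransferase NSun2 (NSun2-/-). The WT animals were male C57Bl6/J CBA F1 mice at postnatal day 25, when the hair follicles are in their growth phase (anagen), and came from the breedings that also gave the NSun2-/- mice. Chromatin of total back skin, a mixture of cell types in which fewer cells with a bound gene and less binding per cell cannot be told apart, was cross-linked with 1% formaldehyde, and each ChIP or input library pooled 3 mice. The antibody was raised against POLR3A, the largest subunit of Pol III. The title of WT replicate 1 abbreviates the target as PolII, while its antibody field names POLR3A. An NSun2-/- ChIP and an NSun2-/- input library, from a gene trap line on the same background, served as libraries that the call had not used. Since the input arm holds 1 library, its own spread is unknown.

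Pol III transcribes the tRNA genes together with other short non-coding RNA genes. Most tRNA genes carry their promoter inside the transcribed sequence, as an A box in the part that becomes the D arm and a B box in the part that becomes the T arm. The factor TFIIIC binds both boxes and places TFIIIB upstream of the start, and TFIIIB recruits the polymerase. Mammalian genomes also hold many tRNA-like sequences that are not tRNA genes, among them short interspersed repeats such as rodent B2, which descend from tRNA genes and carry similar box letters.

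WT ChIP replicate 1 held 36866 reads over all predicted loci, WT ChIP replicate 2 held 63136 and WT input held 15918. The 2 NSun2-/- libraries held 95112 reads (ChIP) and 14483 reads (input). Levels are in RPM, meaning reads per 1000000 reads that the library held at predicted loci, and a ratio is the mean ChIP level over the input level after 1 read was added to every count. The threshold of 10 reads equals 271 RPM in replicate 1 and 158 RPM in replicate 2, so weaker binding was not detectable at this depth. Levels were not divided by length, which ran from 71 to 107 bases, with a median of 73, among the occupied genes with known position. The sequenced fragments, of 200 to 300 bases, were longer than the genes.

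The genes at the top of the occupied class show letters found in most genes of known position, occupied or not. Positions and sequences are those of the mouse build mm9 (NCBIM37), 5′ to 3′ on the strand of the tRNA. Capitals mark the core of the B box, searched as GTTCNANNC on the same strand, or the letters GATCGAAAC that stand in its place in the initiator methionine gene. The 7 sequences are the highest gene of each of 6 isotypes and the selenocysteine gene, the only member of its family.
chr11.trna2022-AlaTGC (chr11:48647931-48648002, minus strand): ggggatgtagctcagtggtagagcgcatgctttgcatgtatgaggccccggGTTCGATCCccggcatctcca
chr3.trna792-MetCAT (chr3:90279782-90279853, minus strand): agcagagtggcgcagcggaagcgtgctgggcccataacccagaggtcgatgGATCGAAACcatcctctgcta
chr11.trna1821-SerGCT (chr11:68876544-68876625, minus strand): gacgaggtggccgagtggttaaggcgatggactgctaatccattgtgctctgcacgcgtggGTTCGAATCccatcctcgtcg
chr2.trna1431-HisGTG (chr2:122203099-122203170, minus strand): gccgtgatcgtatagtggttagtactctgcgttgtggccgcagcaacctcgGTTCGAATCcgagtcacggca
chr11.trna1433-CysGCA (chr11:97849560-97849631, minus strand): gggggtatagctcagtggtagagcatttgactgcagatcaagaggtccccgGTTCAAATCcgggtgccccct
chr5.trna1043-AsnGTT (chr5:150040577-150040650, minus strand): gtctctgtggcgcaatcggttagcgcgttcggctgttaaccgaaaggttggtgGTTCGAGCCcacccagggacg
chr7.trna86-SeC(e)TCA (chr7:19886593-19886678, plus strand): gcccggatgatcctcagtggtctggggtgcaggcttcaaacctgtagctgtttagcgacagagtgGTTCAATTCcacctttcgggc

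Positions were known for 206 of the 226 occupied loci. The B box core was found in 194 of these 206 genes (94.2%). Among all 247 genes of known position, occupied or not, it was found in 231 (93.5%). All these positions came from the study's list of transcribed genes. Among consecutive windows of 73 bases on chromosome 19, 1.59% held the same letters on the given strand. The core began with GTTCGA in 144 occupied genes and with GTTCAA in 50. The 12 occupied genes without these letters were 7 initiator MetCAT genes, 4 AlaAGC genes and 1 GlyGCC gene.

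For silent loci only short reads were at hand, since no position of a silent locus was used here. The tRNA sequencing reads that the study listed at single silent loci of SerGCT, AsnGTT and SerACT gave 38 reads of at least 35 bases, 35 of them from SerGCT, at 25 loci, and 37 of the 38 matched the genome exactly. The B box letters GTTCNANNC stood in 4 of the 38 reads, on either strand, the read at chr19.trna277-SerGCT among them, but a short read need not reach the B box of its locus. These 37 reads each matched at 36 to 458 places, with a median of 140 places. The 3 reads printed next are shown because they were among the reads with many matches, and capitals mark GATGGCTCA, a stretch found in B2 repeats.
chr5.trna1001-AsnGTT: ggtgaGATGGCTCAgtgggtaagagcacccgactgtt
chr17.trna261-SerGCT: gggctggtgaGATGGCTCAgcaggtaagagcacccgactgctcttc
chr19.trna277-SerGCT: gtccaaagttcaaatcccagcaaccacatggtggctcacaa
The read at chr5.trna1001-AsnGTT matched 458 places, and its locus held 4 and 3 ChIP reads and 2 input reads. The read at chr17.trna261-SerGCT matched 387 places, and its locus held 4 and 2 ChIP reads and 2 input reads. The read at chr19.trna277-SerGCT matched 348 places, and its locus held 3 and 2 ChIP reads and 12 input reads. All 3 loci thus stayed under the read threshold in both ChIP libraries.

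The letters GATGGCTCA, on either strand, stood in a listed read of 220 of 848 silent loci (25.9%) and of 5 of 53 loci with 10 reads in 1 ChIP library. They stood in no read of the 189 occupied loci or of the 53 read-rich loci listed in the same way, and in none of the 247 genes with known position. Among silent SerGCT loci the share was 152 of 501 (30.3%). These counts took reads listed for either genotype, and 499 of the 848 silent loci held a WT read. In consecutive 73-base windows of chromosome 19, 0.49% held these letters on either strand. A locus counted if any of its listed reads held the letters, so the window share is not a matched background. How repeats of this kind bear on the reads at silent loci was not tested.

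The occupied loci took most of the ChIP reads and few of the input reads. The 226 loci held 66.8% of the reads of WT ChIP replicate 1 (95% exact binomial interval 66.3 to 67.2), 71.8% of replicate 2 (71.5 to 72.2) and 8.38% of the WT input (7.95 to 8.82). The intervals cover counting error only, since the reads passed through 18 PCR cycles. Both ChIP shares lay far above the input share, but these reads had also chosen the loci, so the shares describe the class. The 2817 silent loci held 24.1% and 16.1% of the ChIP reads and 74.2% of the input reads.

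**Figure D1:**
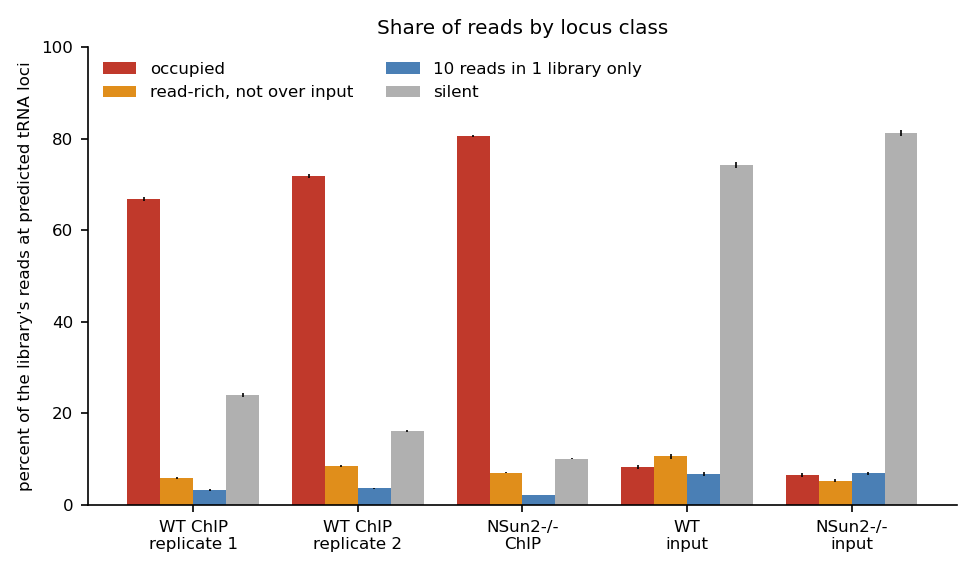
Percent of the reads at all predicted tRNA loci (vertical axis) that fell in each of the 4 locus classes (bars) in the 2 WT ChIP libraries, NSun2-/- ChIP, WT input and NSun2-/- input; error bars are 95% exact binomial intervals. Occupied loci held 66.8% and 71.8% of the WT ChIP reads against 8.38% of the WT input reads, and silent loci held 74.2% of the WT input reads.

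At a single occupied locus the median count was 96.5 reads in replicate 1, 178.5 in replicate 2 and 5 in the input. At a silent locus the median was 3 reads in each of the 3 libraries. Silent loci held 0 to 9 reads in either ChIP library and 0 to 26 in the input. Of the occupied loci, 39 had at least 10 input reads, and 7 had no input read, for which any ratio depends on the added read. The input alone therefore reached the read threshold at both kinds of locus, 185 silent ones included.

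The log2 ratio of ChIP over input had a median of 2.95 at occupied loci, with a range of 1.02 to 6.17. The median was 0.19 at read-rich loci not over input, -0.92 at loci with 10 reads in 1 library, -1.54 at silent loci and -1.38 over all loci. Levels are shares of a library's reads at predicted loci, so the large share at occupied loci in ChIP lowers the ratio at all others. Negative ratios therefore do not show a loss of binding at silent loci. The 2-fold limit rests on the same scaling. The ratio was at least 8-fold at 109 occupied loci (48.2%). Across the 226 occupied loci, the levels of the 2 ChIP libraries had a Pearson r of 0.89 and a Spearman rho of 0.88, given as a description since all points share the same pair of libraries. The libraries lay within 1 log2 unit of each other at 95.6% of the occupied loci.

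**Figure D2:**
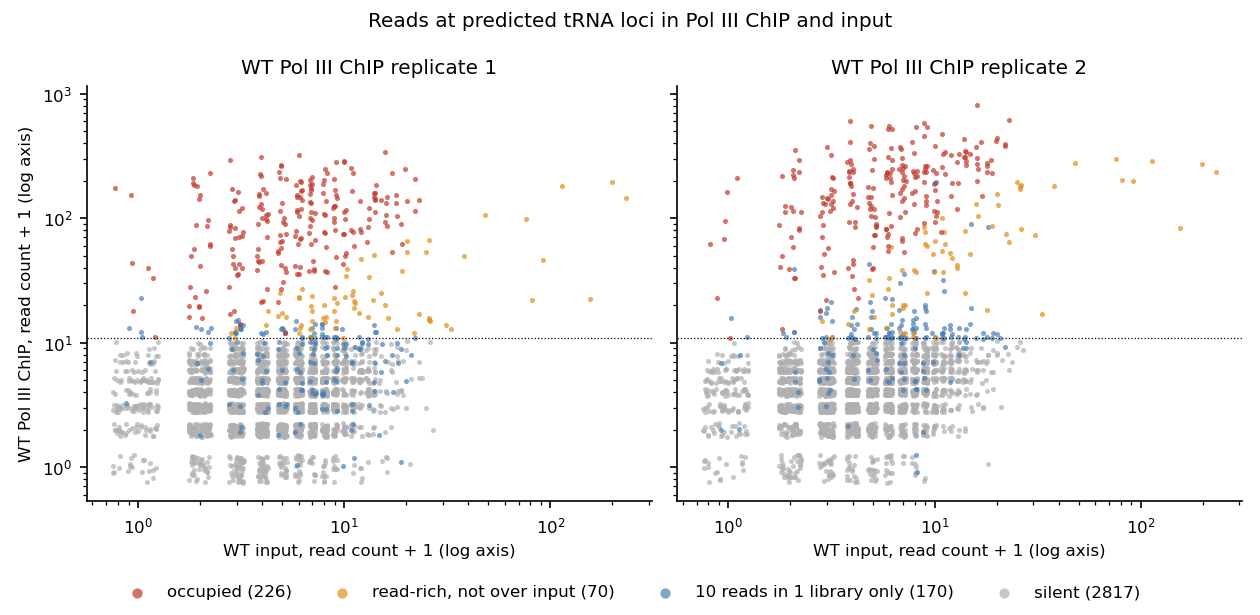
WT input reads (horizontal) against WT Pol III ChIP reads (vertical), each as read count plus 1 on a log axis, with replicate 1 on the left, replicate 2 on the right and 1 slightly shifted point per predicted locus, coloured by class; the dotted line marks the threshold of 10 reads. Occupied loci held at most 22 input reads, silent loci held 0 to 9 ChIP reads with up to 26 input reads, and the loci with the highest input were read-rich without being over input.

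The edgeR quasi-likelihood test with library totals tested 952 of the 3283 loci and, at a Benjamini-Hochberg adjusted p under 0.05, placed 196 above input (20.6%) and 223 below it (23.4%). Of the 226 occupied loci, 195 were higher and 31 were not called. None of the 70 read-rich loci and none of the 517 silent loci tested was higher by edgeR, and at an unadjusted p under 0.05 the test gave 208 higher and 322 lower loci over all classes. The 201 silent loci placed below input had passed the filter on low counts through their input reads, so their number carries no weight. The median log2 fold change was -1.67 with library totals and -0.14 with TMM factors, and the share of calls that were higher was 46.8% and 92.5% respectively. DESeq2 placed 218 loci above input and 0 below, also at an unadjusted p under 0.05, where it gave 232 and 0. Call rule and test read the same counts and are not independent, and with 1 residual degree of freedom the input was assumed to vary like the ChIP libraries.

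The 31 occupied loci that edgeR did not call had fitted log2 fold changes of 0.92 to 6.61 and adjusted p-values of 0.0546 to 0.323. Their median counts were 30 and 53 reads in ChIP and 4 in input, under those of the whole occupied class. The 1 locus called higher by edgeR outside the occupied class was chr4.trna894-AsnATT, with 22 and 7 ChIP reads, no input read, a fitted log2 fold change of 6.72 and an adjusted p of 0.0458.

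Most reads among occupied loci were spread over many genes. Mean levels ran from 310 to 11020 RPM, a 35.6-fold range, with a median of 2879 RPM and quartiles of 1515 and 4140 RPM. The 10 highest loci made up 11.4% of the summed level, 63 loci made up 50% of it, and the lower 113 loci made up 24.8%. No small set of genes thus carried the signal.

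The most heavily read locus was chr14.trna191-TyrGTA, a tyrosine tRNA gene, with 339 and 811 ChIP reads and 15 input reads. Its level was 11020 ± 2581 RPM (SD, n = 2) and its edgeR log2 fold change was 3.54 (SE 0.55, adjusted p = 9.3878e-09). The next was chr11.trna2022-AlaTGC with 306 and 601 ChIP reads against 3 input reads, at 8909.7 ± 862 RPM and a log2 fold change of 5.54 (SE 0.70, edgeR adjusted p = 8.5086e-12). It was followed by the initiator methionine gene chr3.trna792-MetCAT, whose product starts every cytosolic protein, with 322, 519 and 5 reads. Its level was 8477 ± 363 RPM and its log2 fold change 4.74 (SE 0.65, edgeR adjusted p = 1.3177e-10). At all 3 genes each ChIP library was far above the input. The same reads had chosen these genes, so the values describe them and are no separate support.

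The other loci of the top 10 were chr7.trna861-LeuTAG, chr2.trna1431-HisGTG, chr11.trna1821-SerGCT, chr2.trna1509-SerGCT, chr13.trna956-IleAAT, chr11.trna1819-GlyGCC and chr2.trna1432-HisGTG, with mean levels of 8077 down to 6873 RPM. Their order is not settled, since the SD of chr11.trna1821-SerGCT was 2549 RPM and that of chr2.trna1431-HisGTG was 1664 RPM at n = 2. The 10 loci belonged to 8 isotypes and lay on 6 chromosomes.

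Occupied loci were found for 21 of the 24 isotype labels, which are the 20 standard amino acids and the selenocysteine gene listed as SeC(e). Serine had the most predicted loci and also the most occupied ones, 19 of 1299. Arginine and leucine followed with 18 occupied loci each, of 73 and 53 predicted. Glycine had 17 of 94, proline 14 of 38, alanine 13 of 461, lysine 13 of 65, glutamate 12 of 41 and methionine 12 of 26. The number of predicted loci thus differed far more between isotypes than the number of occupied ones.

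Glutamine had 11 occupied loci of 22 predicted, aspartate 10 of 41, threonine 10 of 119, valine 10 of 118, cysteine 9 of 76, isoleucine 9 of 75 and tyrosine 9 of 18. Asparagine had 6 of 197, phenylalanine 6 of 13, histidine 5 of 14 and tryptophan 4 of 8. The labels without an occupied locus were the other selenocysteine label (4 predicted loci), the suppressor label (2 loci) and the loci of undetermined anticodon (425 loci).

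The share of reads at occupied loci is a sum over those loci, so it tends to rise with their number. Serine loci of this class held 4.99% and 6.4% of the ChIP reads against 0.73% of the input reads. Arginine loci held 5.56% and 7.23% against 0.74%, leucine loci 5.53% and 6.64% against 0.92%, glycine loci 5.59% and 5.32% against 0.61%, and methionine loci 4.75% and 4.39% against 0.41%. All 5 isotypes stood above their input share in both ChIP libraries. The same reads had chosen these loci, so the shares only describe the class. Tryptophan, with 4 loci, held 0.56% and 0.99%.

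Across the 21 isotypes, the number of occupied loci and their mean share of ChIP reads had r = 0.94 and rho = 0.91. The number of predicted and of occupied loci had r = 0.43 and rho = 0.50. Over the 47 anticodon families with an occupied locus the values were r = 0.88 and rho = 0.86 for occupied loci and share, and r = 0.20 and rho = 0.49 for predicted and occupied loci. These are descriptions across groups of loci that share the same 3 libraries. The share is summed over the very loci counted, so its correlation with their number is partly built in.

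The silent class was concentrated where the occupied class was not. Serine made up 44.3% of silent and 8.41% of occupied loci. The families SerGCT, AlaAGC and Undet together held 1919 predicted loci (58.5% of all) and 65.2% of silent ones. Only 14 of their loci were occupied (0.73%), against 212 of the other 1364 loci (15.5%). The 3 families with most occupied loci made up 13.7% of that class.

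**Figure D3:**
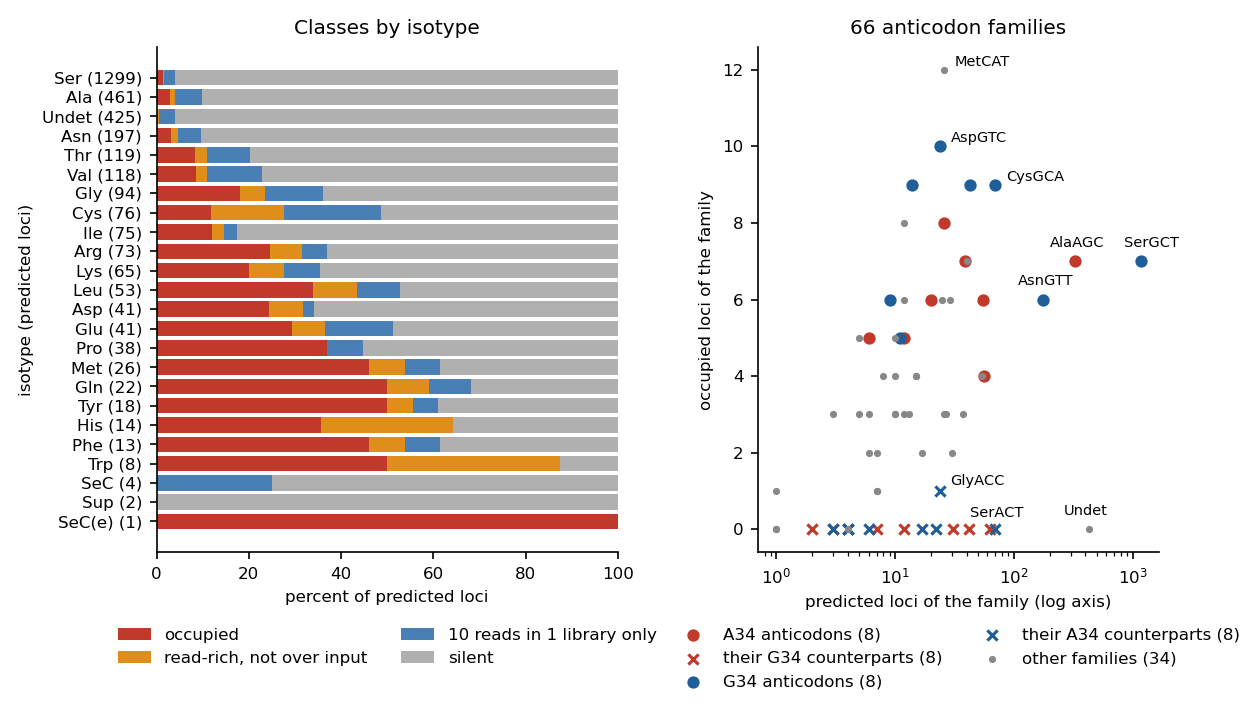
Left, percent of the predicted loci of each of the 24 isotype labels (number of predicted loci in brackets) in each class; right, predicted loci (log axis) against occupied loci of each of the 66 anticodon families, with the wobble lists as circles and their unused counterparts as crosses. Serine had 19 occupied loci of 1299 and leucine 18 of 53, the SerGCT family had 7 of 1167, and GlyACC was the 1 cross above 0.

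An anticodon family is the set of loci that share the 3 letters at the end of the locus name. Of 66 families, 47 had at least 1 occupied locus. The number per family ran from 1 to 12 with a median of 4, and 41 families had 2 to 9. The 2 families with at least 10 were MetCAT (12 of 26 loci), which holds the initiator and elongator methionine genes, and AspGTC (10 of 24). Every locus was occupied in ArgCCG (3 of 3), ArgTCG (5 of 5) and SeC(e)TCA (1 of 1), and at least 50% of the loci were occupied in 12 families.

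The 3 ArgCCG genes held 66, 139 and 145 reads in replicate 1 and 101, 266 and 454 in replicate 2, against 6, 13 and 8 input reads, for chr13.trna997-ArgCCG, chr17.trna994-ArgCCG and chr11.trna945-ArgCCG in turn. The 5 ArgTCG genes had mean levels of 1393 to 4744 RPM. The other arginine families with occupied loci were ArgACG with 5 of 6, ArgCCT with 3 of 27 and ArgTCT with 2 of 30.

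The selenocysteine gene chr7.trna86-SeC(e)TCA, which reads a stop codon and is transcribed with the help of upstream elements, held 15 and 38 ChIP reads and 1 input read. Its level was 504 ± 138 RPM (SD, n = 2). It was the only occupied gene with a special anticodon and was not called by edgeR, with a log2 fold change of 2.96 (SE 1.33, adjusted p = 0.0555).

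At the wobble position, families divided by the first anticodon base. In 8 decoding boxes the tRNA carries A at this position, which is edited to inosine and reads codons ending in T and C. All 8 of these A34 anticodons (AlaAGC, SerAGA, ProAGG, ThrAGT, ValAAC, LeuAAG, IleAAT and ArgACG) had occupied loci, 48 of 541 predicted. Their G34 counterparts, which read the same codons (AlaGGC, SerGGA, ProGGG, ThrGGT, ValGAC, LeuGAG, IleGAT and ArgGCG), had 0 of 164, with 13 loci at 10 reads in 1 library and 151 silent. The 164 loci held 1.58% and 1.17% of the ChIP reads and 5.55% of the input reads.

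The opposite held for the boxes that use G34. The 8 families GlyGCC, AspGTC, AsnGTT, HisGTG, CysGCA, TyrGTA, PheGAA and SerGCT had 61 occupied loci of 1513 predicted, and each family had at least 1. Their A34 counterparts had 1 of 149, with 9 loci at 10 reads in 1 library and 139 silent. Among these 9 was chr4.trna894-AsnATT, named above, with 22 and 7 ChIP reads, no input read and a fitted log2 fold change of 6.72. NSun2-/- ChIP and input held 8 and 7 reads there. The share of occupied loci was 8.87% for the used A34 list and 4.03% for the used G34 list, against 0.67% for the A34 counterparts and 6.88% over all 3283 predicted loci. Loci for stop codons, selenocysteine and undetermined anticodons had 1 of 432 occupied.

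The 1 occupied locus with an unused anticodon was chr11.trna205-GlyACC, with 79 and 77 ChIP reads and 10 input reads. Its ratio was 2.76-fold, close to the threshold of 2, and edgeR did not call it (log2 fold change 1.41, SE 0.69). The NSun2-/- libraries held 98 ChIP reads and 1 input read there. By locus number it lies in a run of 5 consecutive occupied loci on chromosome 11, between chr11.trna204-ValCAC (135, 319 and 2 reads) and chr11.trna206-ThrTGT (184, 302 and 6 reads). By position, 2 occupied genes of the minus strand, chr11.trna2023-LysCTT and chr11.trna2022-AlaTGC, lie between chr11.trna205-GlyACC and chr11.trna206-ThrTGT.

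The largest family, SerGCT, had 1167 predicted loci, of which 7 were occupied, 29 reached 10 reads in 1 library and 1131 were silent. Of the 7 occupied loci, 4 lay on chromosome 13 and 1 each on chromosomes 2, 11 and 19. Their levels ran from 719 RPM at chr13.trna976-SerGCT (11, 72 and 4 reads) to 7336 RPM at chr11.trna1821-SerGCT (204, 577 and 8 reads). The 2 highest, with chr2.trna1509-SerGCT (209, 551 and 4 reads), were in the top 10 of all loci.

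Alanine and asparagine showed the same division. AlaAGC had 7 occupied of 327 loci, with levels of 859 to 6809 RPM. AsnGTT had 6 of 175, and its highest gene, chr5.trna1043-AsnGTT, held 113 and 376 ChIP reads and 21 input reads. Its log2 fold change of 1.78 (SE 0.55, edgeR adjusted p = 0.00519) was small for a gene of its level, since its input count was among the highest of the occupied class.

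CysGCA had many loci between the occupied and the silent class. Of 70 loci, 9 were occupied, 12 were read-rich without being over input, 15 reached 10 reads in 1 library and 34 were silent. Chromosome 6 held 53 of them, with 3 occupied, 11 read-rich, 14 in 1 library and 25 silent. On chromosome 11, 4 of 5 CysGCA loci were occupied, and on chromosome 9, 2 of 2. The levels of the 9 occupied genes ran from 339 RPM at chr6.trna1024-CysGCA (18, 12 and 1 reads) to 6585 RPM at chr11.trna1433-CysGCA (266, 376 and 4 reads).

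The 19 families without an occupied locus held 720 predicted loci, from 1 to 425 per family. Besides the unused G34 and A34 counterparts other than GlyACC they were SeCTCA, SupCTA, SupTTA and Undet. Of the 425 undetermined loci, 2 were read-rich without being over input, 15 reached 10 reads in 1 library and 408 were silent.

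Occupied loci lay on 19 of 21 chromosomes and were concentrated on few. Chromosome 13 held 75 of its 207 predicted loci as occupied (36.2%), which was 33.2% of all occupied loci. Chromosome 11 held 35 of 278 and chromosome 3 held 19 of 158. Together the top 3 chromosomes by count made up 57.1% of occupied loci, while the 3 chromosomes with most predicted loci made up 23.3% of predicted ones.

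Chromosome 1 had 15 occupied of 224 predicted loci, chromosome 19 had 10 of 69, chromosome 10 had 9 of 157, chromosome 14 had 9 of 112 and chromosome 7 had 9 of 177. Chromosome 5 had 8 of 243, chromosome 2 had 7 of 243, chromosomes 6, 9 and 17 had 6 each, of 186, 182 and 123, and chromosome 8 had 5 of 171. Chromosomes 4 and 12 had 2 each, of 213 and 122. Predicted loci were thus plentiful on chromosomes with few occupied ones.

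Chromosomes 15, 16 and X had 1 occupied locus each, and all 3 were well above the read threshold. The gene chr15.trna913-MetCAT, on chromosome 15 of 104 predicted loci, was at 6366 RPM, chr16.trna50-ThrCGT at 3869 RPM among 87 predicted loci, and chrX.trna459-ValTAC at 3595 RPM among 141. Chromosome 18 had 0 of 85, with 3 loci at 10 reads in 1 library. The 1 mitochondrial locus was read-rich without being over input, at 11, 73 and 21 reads.

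**Figure D4:**
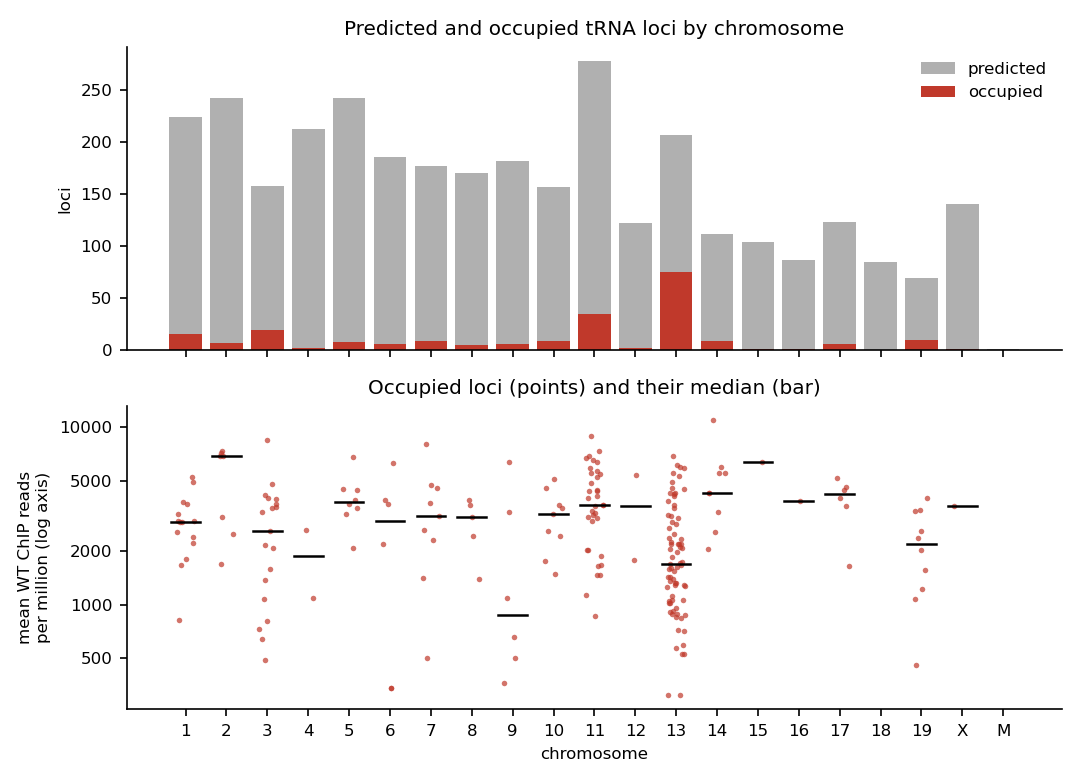
Top, predicted loci (grey bars) and the occupied loci among them (red bars) on each chromosome; bottom, mean WT ChIP level of each occupied locus in RPM (points, log axis) and the median per chromosome (horizontal lines). Chromosome 13 had 75 occupied loci of 207 and many with low levels, chromosome 11 had 35 of 278, and chromosome 18 had none of 85.

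The occupied genes of chromosome 13 were many but were read less than those elsewhere. Their median level was 1845 RPM in replicate 1 and 1616 RPM in replicate 2, against 3038 and 3564 RPM at the other 151 occupied loci. In the WT input the medians were 3 reads on chromosome 13 and 6 elsewhere. The level was under 1000 RPM at 16 of 75 loci (21.3%) on chromosome 13 and at 13 of 151 (8.61%) elsewhere. The median log2 ratio over input was 2.98 on chromosome 13 and 2.90 elsewhere, so the gap in level was not seen in the ratio to WT input, and no test of it was made. In NSun2-/- ChIP, which the call had not used, the medians were 1714 and 3974 RPM, while in NSun2-/- input they were 4 reads in both groups.

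Occupied loci sat beside each other. By the locus numbers, 150 of 226 occupied loci (66.4%) had an occupied direct neighbour, against 166 of 2817 silent loci (5.89%) and 362 of all loci. Among genes of known position, the numbers ran along the plus strand and then back along the minus strand. A neighbour by number is therefore not always the nearest gene. The longest runs were chr13.trna947-MetCAT to chr13.trna958-TyrGTA and chr13.trna972-SerCGA to chr13.trna984-SerTGA, with 12 loci each, and chr13.trna101-TyrGTA to chr13.trna108-MetCAT with 8. The runs mixed isotypes, since the first held 10 families.

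By position, with genes joined where at most 50 kb apart, the 206 occupied genes of known position formed 76 groups. In these, 160 genes (77.7%) had company and 46 stood alone. The largest group held 27 genes of 18 families at chr13:23517515-23622288. Others were 21 genes of 13 families at chr13:21947189-22142636, 14 genes of 11 families at chr13:21252654-21418658, 14 genes of 12 families at chr11:68850505-68938750, and 8 genes of 8 families at chr11:48632044-48670557. Each of these groups therefore served many amino acids.

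Gene neighbours can share fragments. In 20 pairs of genes at most 300 bases lay between them, and 33 occupied genes were in such pairs, so that a fragment could reach both. Of the 206 occupied genes, 195 lay outside protein-coding genes of the GENCODE annotation of this build, 10 lay in introns and 1 in an exon. The exonic gene was chr10.trna381-AsnGTT, which overlaps an exon of Ndufs7, a gene for a subunit of mitochondrial complex I. The intronic genes were chr11.trna2022-AlaTGC and chr11.trna2023-LysCTT in Trim7, chr8.trna886-GlyGCC and chr8.trna887-GlyGCC in Vac14, and 1 gene each in Btn1a1, Elf1, Trim2, Nfib, 1700064H15Rik and 1110001J03Rik.

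Genes of identical sequence differed in how much polymerase they held. Among the 247 genes of known position, 42 groups of identical genes held 153 genes, and 139 of the 206 occupied genes had an identical copy. The highest level within a group exceeded the lowest by a median of 2.90-fold and at most 9.86-fold. Reads that match several loci had been shared out by the authors in proportion to unique reads, so levels of identical genes rest on reads that reach into their flanks.

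The initiator methionine genes gave a wide spread. Of 8 genes with the initiator letters, 7 were identical and occupied, with levels of 922 to 8477 RPM (9.20-fold). The lowest were chr13.trna108-MetCAT with 37 and 53 ChIP reads and 6 input reads, and chr13.trna983-MetCAT with 36, 73 and 4. The middle ones were chr13.trna947-MetCAT with 180, 207 and 1 reads, chr13.trna111-MetCAT with 210, 216 and 1, chr13.trna78-MetCAT with 188, 374 and 6, and chr13.trna90-MetCAT with 249, 330 and 7. In both ChIP libraries the 2 lowest genes lay under all 5 others, but the genes were ordered by these same counts, so this only describes them. The 8th gene, chr13.trna82-MetCAT, was read-rich without being over input at 14, 36 and 7 reads.

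The 5 identical HisGTG genes gave the largest ratio. The gene chr2.trna1431-HisGTG held 228, 539 and 7 reads (7361 RPM), and chr2.trna1432-HisGTG held 230, 474 and 10. The gene chr3.trna747-HisGTG held 27, 90 and 8 reads, chr4.trna1697-HisGTG held 40, 70 and 5, and chr3.trna291-HisGTG, which was not over input, held 13, 72 and 30 (747 RPM). The 2 genes of chromosome 2 lay above the other 3 in both ChIP libraries. The group was picked by its ratio in these same libraries, so this only describes it.

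**Figure D5:**
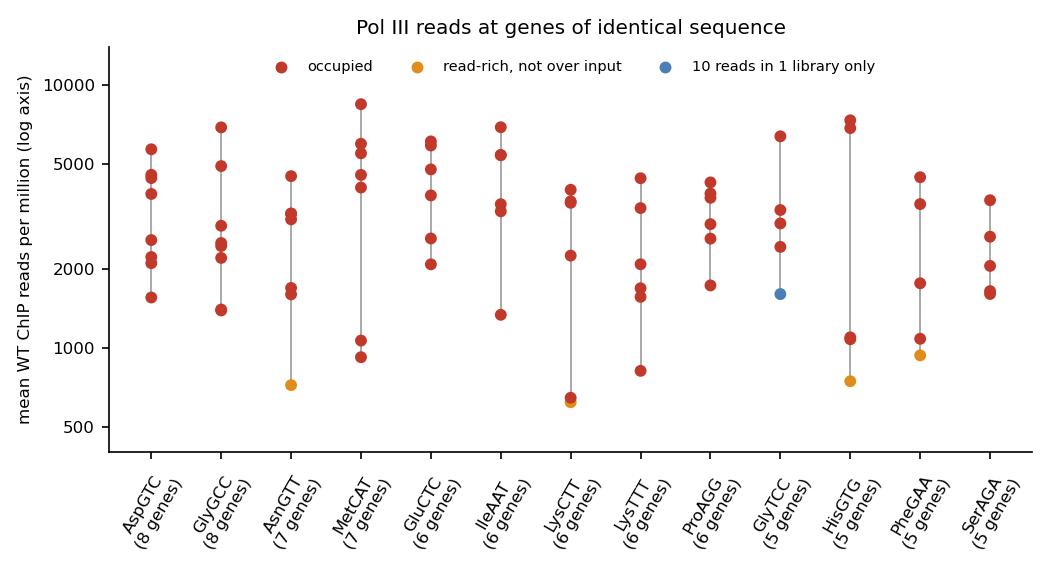
Mean WT ChIP level in RPM (vertical log axis) of the genes in each group of at least 5 identical genes, 1 point per gene, coloured by class and labelled by family. The 7 MetCAT initiator genes ran from 922 to 8477 RPM and the 5 HisGTG genes from 747 to 7361 RPM.

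In the NSun2-/- libraries, which the call had not used, most occupied loci passed as well. All 226 occupied loci held at least 10 reads in NSun2-/- ChIP, with a median of 300.5 reads, and 207 of them passed the same rule against NSun2-/- input, where the rule called 239 of 3283 loci (7.28%). The other 32 were 27 of the 70 read-rich loci and 5 of the 170 loci with 10 reads in 1 library. No silent locus passed, although 44 of 2817 held at least 10 NSun2-/- ChIP reads. Occupied loci held 80.6% of the NSun2-/- ChIP reads and 6.55% of the NSun2-/- input reads. These values rest on 1 ChIP and 1 input library, from mice of the other genotype.

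Each WT ChIP library was also called alone. Replicate 1 called 243 loci (7.4%) and replicate 2 called 239 (7.28%), and 218 loci were called by both. The rule was also applied to input against input, with 1 library on each side. There 10 reads equal 628 RPM in WT input and 690 RPM in NSun2-/- input, so this gives no matched background for the ChIP. NSun2-/- input over WT input passed at 44 loci (1.34%), and WT input over NSun2-/- input passed at 148 loci (4.51%). The rule therefore passed some loci where nothing was precipitated, but the difference in depth keeps these shares from being set against those of the ChIP.

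The 70 read-rich loci not over input were chosen in part by their WT input reads, so their WT input counts only describe the class. Of these loci, 36 had at least 10 WT input reads. When the WT ChIP libraries were set against NSun2-/- input instead, 28 of the 70 loci passed the rule. The median over the 70 loci was 10 reads in the WT input and 6.5 in the NSun2-/- input. The ratio lay between 1 and 2 at 42 loci and under 1 at 28.

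A block of 27 loci on chromosome 1 (numbers 690 to 710 and 990 to 1010), picked out after its values were seen, held the highest input counts. It took 5.63% and 7.97% of the WT ChIP reads, 7.63% of the WT input, 7.25% of NSun2-/- ChIP and 2.72% of NSun2-/- input. At chr1.trna1001-GlyTCC the counts were 143 and 236 in WT ChIP, 232 in WT input, 266 in NSun2-/- ChIP and 60 in NSun2-/- input. At chr1.trna1000-AspGTC they were 193, 272, 198, 216 and 30 in the same order, and at chr1.trna701-LeuCAG 21, 83, 154, 130 and 62. WT input stood above NSun2-/- input at all 3 loci, and the part of the input in their missing call was not tested.

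The next by input were chr1.trna704-GlyGCC, with 181 and 284 ChIP reads against 112 in WT input, and chr1.trna1002-GluCTC, with 45 and 198 against 91. In the block, 10 loci were occupied, 12 were read-rich without being over input, 3 reached 10 reads in 1 library and 2 were silent. Without the block, 216 loci were occupied.

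Loci just inside and just outside the thresholds had similar counts. At the read threshold, chr13.trna93-ValAAC (17, 10 and 0 reads), chr13.trna99-MetCAT (10, 22 and 0) and chr13.trna976-SerGCT (11, 72 and 4) were the lowest occupied. Just outside lay chr6.trna1029-CysGCA (9, 38 and 1), chr1.trna995-GlyTCC (9, 187 and 9) and chr1.trna998-GlyTCC (8, 195 and 9). At the fold threshold, chr11.trna1493-GlnTTG (52, 150 and 16 reads, 2.03-fold), chr13.trna107-TrpCCA (2.13-fold) and chr6.trna172-CysGCA (2.18-fold) were inside. Outside lay chr13.trna61-MetCAT (13, 57 and 5 reads, 1.96-fold), chr14.trna457-PheGAA (1.92-fold) and chr3.trna1040-ArgACG (65, 155 and 19 reads, 1.92-fold).

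The replicates differed most at weakly read loci. Replicate 2 was 1.88 log2 units above replicate 1 at chr13.trna976-SerGCT and 1.39 above it at chr11.trna1911-LeuCAA, which held 140 and 610 reads. The log2 difference was -1.44 at chr13.trna93-ValAAC and -1.27 at chr6.trna1024-CysGCA. The leucine gene was the exception among these 4, with the highest input count of the occupied class, 22 reads.

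Of the occupied loci, 189 of 226 held reads in the 4 WT tRNA sequencing libraries, as did 52 of the 70 read-rich loci, 499 of 2817 silent loci and 779 of all 3283 loci (23.7%). Occupied loci took 69.7% ± 1.99 (SD, n = 4) of those reads, read-rich loci not over input 26.9% ± 1.87 and silent loci 2.72% ± 0.22.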

How the data were processed

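Reads were aligned by the authors to mm9 with Bowtie, tRNA loci were predicted with tRNAscan-SE, and reads that matched several loci were divided in proportion to uniquely matching reads. The authors deposited these values as whole-number counts per predicted locus, with no scaling; a tRNA sequencing read could be listed at several loci. The counts of the WT libraries were grouped by the labels into 2 ChIP and 1 input library. RPM used the total over all 3283 loci, ratios used a pseudocount of 1, and calls required 10 reads and 2-fold. Counts were tested with edgeR 4.0.16 (R 4.3.3, glmQLFit, glmQLFTest, filterByExpr, library totals, Benjamini-Hochberg), with DESeq2 1.42.0 and TMM as alternatives. On simulated counts, the edgeR script recovered 11.8% of the tested loci raised 4-fold and 96.1% of those raised 16-fold. Classes and shares were computed with pandas 2.3.3 and numpy 2.4.6.

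Isotype, anticodon and chromosome were read from the locus names. Positions came from the study's list of transcribed genes and served for sequences, identical genes, spacing and gene context. The study identified such genes by Pol III ChIP-seq and RNA sequencing, so the list is not independent of these libraries. Of 249 listed, 2 with the end before the start were left out, and all 247 others carried the anticodon letters at bases 28 to 45. Named loci were the 10 highest, the highest per isotype, those at each threshold, the 5 unoccupied with most input, the replicate extremes, and occupied loci with special or unused anticodons. Members and lists were chosen with earlier results of these data known. Depth was 15918 to 63136 reads, and intervals cover counting error only. Nothing says that the pools were independent beyond their labels, so p-values measure the spread between these libraries. The sequence of the most heavily read gene is not reported here.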

Additional observations from a re-analysis of the deposited data

Results flagged for a closer look

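Some loci that were not called occupied in WT skin passed a threshold in data that the call had not used. In NSun2-/- skin, 27 of the 70 loci that were read-rich but not over input in WT passed the same rule over NSun2-/- input (38.6%, against 7.28% of all loci). Of the 170 loci with 10 reads in 1 WT library only, 5 passed there (2.94%), a share under that of all loci. The rule called 1.34% and 4.51% when 1 input was set against the other, but at lower depth, so these are no matched background. The 5 loci were chr1.trna995-GlyTCC, chr1.trna998-GlyTCC, chrX.trna121-GlyTCC, chrX.trna321-ArgCCT and chr6.trna1029-CysGCA. At chr1.trna998-GlyTCC the WT ChIP counts were 8 and 195, and NSun2-/- ChIP held 255 reads against 7 in its input. In the WT tRNA sequencing libraries, 499 of 2817 silent loci (17.7%) held more than 3 reads, the limit that a count of 0 allows, against 23.7% of all loci with a read. The 4 silent loci with most of these reads took 94.8% of them, led by chr3.trna282-GlyCCC with 67.8%, which held 1 and 6 WT ChIP reads.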

How the results depend on the processing

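The count of occupied loci ran from 182 (4-fold over input) to 281 (TMM factors), and the families with an occupied locus from 46 to 49, over the alternatives tried. It was 242 and 215 at 5 and 20 reads, 247 at 1.5-fold, 225 with the smaller pseudocount, 240 with NSun2-/- input, 233 with both inputs, and 239 and 243 without WT replicate 1 and 2. Without the 27 chromosome 1 loci, an alternative chosen after seeing the data, it was 216. The shares of reads at occupied loci in replicates 1 and 2 moved to 60.7% and 64.2% at 4-fold and to 71.1% and 78.1% with TMM, and that of replicate 2 to 76.1% with NSun2-/- input. Without 1 WT replicate the shares were 67.2% to 67.3% and 71.2% to 74.4%, and edgeR over all 5 libraries gave 166 to 230 higher and 227 to 735 lower loci. The full 5-library fit gave 212 higher and 732 lower. TMM gave 235 higher and 19 lower, DESeq2 gave 218 and 0, and no filter gave 173 and 286. With NSun2-/- input the log2 ratio of chr13.trna99-MetCAT turned to -0.35. The cause was not tested. Changing the input to NSun2-/- kept 212 of the 226 occupied loci, lost 14 and added 28, of which 6 lay in the chromosome 1 block. No paired analysis was possible because the input arm holds 1 library, so the groups compared share fewer than 2 replicate numbers. Depth limits the silent class: 10 reads is 271 RPM in replicate 1 and 158 RPM in replicate 2.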
